A study of Mus musculus with 504 samples.

Results

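GFP-positive cells with low surface EpCAM (sort gate P10), sorted from mammary tumours, were set against those with medium surface EpCAM (gate P16) from the same mice. All libraries of these 2 gates that the labels mark as having passed quality control were taken from the Tnc-CreERT2 line: 25 of P10 and 26 of P16, or 51 of the 335 libraries that passed in the whole series. They came from 4 animals, TENA2462, TENA2483, TENA2517 and TENA2524, and counts were summed per animal and gate, so that each gate had 4 sums paired by animal. Mice of both gates carried Tnc-CreERT2, MMTV-Flpo, the RC::FrePe reporter and the MMTV-PyMT oncogene, and tamoxifen was given in doses of 2 mg, 2 per week, from the age of 9 weeks to the end of the experiment at 13 to 14 weeks. P10 and P16 cells alike were labelled high for GFP and negative for mCherry. The strain background is not given in the labels used here. Each library held a pool of 5 cells, sorted directly from tumours per the labels' growth protocol although the source label speaks of cell lines, and copied with Smart-seq2, which amplifies polyadenylated RNA along its whole length.

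In this reporter mouse a mammary-driven Flp recombinase turns tumour cells red, and a Cre recombinase that acts after tamoxifen turns them green for good. The Cre is made only where Tnc is active, and Tnc encodes tenascin C, a matrix protein of tumour stroma and of tumour cells in a partial epithelial-to-mesenchymal transition (EMT). GFP therefore records past activity of the Tnc promoter, whatever the cell makes when it is sorted. EpCAM is an adhesion protein of the epithelial surface, and in EMT epithelial cells lose such proteins, their junctions and their simple keratins while they gain vimentin and matrix genes. EMT transcription factors of the Snail and Zeb families silence epithelial promoters by binding the short E-box sequence CAGGTG. The comparison asks whether cells sorted as GFP-positive that differ in surface EpCAM also differ along that programme.

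The promoters of Epcam and of Krt8, the keratin used below as an epithelial marker, both hold this E-box by their RefSeq starts (GRCm38.p6). In the GENCODE M21 annotation Krt8 starts further upstream, at position 102004482 on the minus strand. By that start the Krt8 sequence below overlaps the gene, and its E-box lies inside the gene. The 250 bases before the RefSeq start of each gene are shown 5′ to 3′ on the strand of the gene, Epcam at chr17:87635729-87635978 on the plus strand and Krt8 at chr15:102004343-102004592 on the minus strand, with CAGGTG or its reverse complement CACCTG in capitals.
Epcam: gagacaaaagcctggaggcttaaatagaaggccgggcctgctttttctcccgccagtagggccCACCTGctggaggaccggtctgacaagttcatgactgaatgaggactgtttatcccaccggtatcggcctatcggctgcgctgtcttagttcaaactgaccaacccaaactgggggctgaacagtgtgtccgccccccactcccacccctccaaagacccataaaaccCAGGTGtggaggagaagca
Krt8: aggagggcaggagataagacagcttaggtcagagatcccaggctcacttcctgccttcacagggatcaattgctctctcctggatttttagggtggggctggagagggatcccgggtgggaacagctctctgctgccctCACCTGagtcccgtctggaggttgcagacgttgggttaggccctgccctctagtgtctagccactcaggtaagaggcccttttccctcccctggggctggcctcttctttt
The hexamer, on either strand, lay in this window of 19.43% of the 27025 genes with a promoter in the RefSeq table. It lay in 7 of 14 epithelial adhesion genes with a promoter there, in 4 of 4 epithelial keratin genes and in 2 of 11 macrophage genes. These matches describe the letters only, and binding of a factor was not measured.

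Libraries held 313655 to 9524984 counts in P10 (median 3171174) and 491170 to 10001459 in P16 (median 4128000). Libraries per animal, in the order TENA2462, TENA2483, TENA2517 and TENA2524, numbered 7, 7, 4 and 7 for P10 and 12, 1, 7 and 6 for P16, so every P16 value of TENA2483 rests on 1 library. All values per animal below follow this order of animals. Levels are counts per 1000000 counts (CPM) of a sum with its TMM scaling factor, and CPM of single libraries are without the factor. The 3 genes of the ribosomal RNA locus on chromosome 17 (CT010467.1, Gm42418 and AY036118) took 34.79 to 93.63% of counts in P10 libraries (median 57.27%) and 28.98 to 91.83% in P16 libraries (median 53.67%). Protein-coding genes held a median of 33.85% of counts in P10 and 38.13% in P16. In 5 P10 and 4 P16 libraries the 10 leading genes took over 75% of all counts. The table lists no reporter transcript, so GFP and mCherry could not be checked in the RNA. Since reads were not tagged per molecule, intervals and bounds below cover counting error only, and in pools of cells fewer cells of a type and less RNA per cell cannot be told apart.

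At the level of single genes no difference between the gates passed the test. Of 33768 genes tested with edgeR's quasi-likelihood test and the animal as a block, 0 had an adjusted p below 0.05 (0%), and the smallest adjusted p was 0.479. At an unadjusted p below 0.05 stood 1610 genes, or 4.77% of those tested: 898 (2.66%) were fitted higher and 712 (2.11%) lower in P10. Of the genes tested, 3428 had 0 counts in both gates and hold no difference to find. They count in these percentages and in the median below, and they lower the percentages. Among the 8814 genes that averaged at least 10 CPM in either gate, 225 were higher and 75 lower at that level. The shares of all genes set beside the lists below are thus not matched to the level of list members. DESeq2 on the same sums called 65 genes higher and 51 lower among the 22045 genes for which its fit converged (0.526%), and 1 of these 116 belonged to a gene list described below. The median fitted log2 fold change of all genes was 0.00, and the median standard error was 2.11 on the log2 scale, so at this depth and spread even large differences of most genes were not detectable. Over the 8814 genes that averaged at least 10 CPM in either gate, the log2 ratio of P10 to P16 in one animal was all but unrelated to that in another (Pearson's r across genes −0.03 to 0.05 over the 6 pairs of animals, genes not being independent replicates). The biology below therefore consists of levels per animal and per library, with fitted folds that did not pass the adjusted test.

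Epcam itself, the transcript of the sorted protein (chromosome 17, 87635979 to 87651129, plus strand), stood at 3915, 648, 38.0 and 1706 CPM in P10 and at 3207, 1576, 4189 and 1392 CPM in P16. P10 was the lower gate in TENA2483 and TENA2517 and the higher one in the other two animals, and the ranges of the gates overlapped. The fitted log2 fold change was −0.66 ± 1.13 (SE; edgeR adjusted p = 1.00). The label "low" against "medium", which refers to protein on the surface, was thus not matched by a transcript difference beyond the spread between animals.

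Krt8 and Krt18 encode the paired keratins of simple epithelia. Krt8 (chromosome 15, 101996698 to 102004482, minus strand) stood at 4858, 343, 0.130 and 2473 CPM in P10 and at 6924, 642, 4754 and 1171 CPM in P16. Its partner Krt18 stood at 4081, 314, 15.4 and 1792 CPM in P10 and at 4638, 761, 3439 and 582 CPM in P16. Both keratins were near 0 in a single sum, P10 of TENA2517, and higher in P10 than in P16 in TENA2524 only. The fitted log2 fold changes were −0.41 ± 1.33 for Krt8 and −0.19 ± 1.43 for Krt18 (edgeR adjusted p = 1.00 for both). Without TENA2517 they came to 0.07 for Krt8 and 0.48 for Krt18.

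Other epithelial adhesion genes differed in their course. Cdh1, which encodes E-cadherin, stood at 280, 28.2, 0 and 91.4 CPM in P10 and at 278, 35.8, 150 and 170 CPM in P16 (log2 fold change −1.15 ± 1.49, edgeR adjusted p = 1.00). Jup, which encodes the junction protein plakoglobin, stood at 999, 153, 26.6 and 409 CPM in P10 and at 842, 277, 341 and 329 CPM in P16. F11r, which encodes the tight junction protein JAM-A, was present in every sum, with 156, 344, 122 and 254 CPM in P10 and 269, 116, 114 and 187 CPM in P16. Cldn4, a claudin of tight junctions, was at 0 in P10 of TENA2517 and at 3179, 39.4 and 805 CPM in P10 of the other animals, against 3052, 1423, 984 and 294 CPM in P16.

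Over the list of 22 epithelial adhesion genes 0 were below an unadjusted p of 0.05, and the median log2 fold change was −0.61, against 0.00 for all genes. By animal, the median log2(CPM + 1) ratio of the list was 0.11, −0.28, −5.12 and 0.31, with TENA2517 far below the other 3 animals. The list summed to 12140, 2449, 208 and 4873 CPM in P10 and to 10760, 4897, 7623 and 3664 CPM in P16. Without TENA2517 the median of the list was −0.13. Of the 6 epithelial keratins, the 10 epithelial proteases and inhibitors and the 3 epithelial splicing regulators 0 were below an unadjusted p of 0.05, and their medians were −0.30, −0.66 and −0.82. Of 16 epithelial transcription factors 1 was lower at that level, against 2.11% of all genes, with a median of −0.49.

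**Figure D1:**
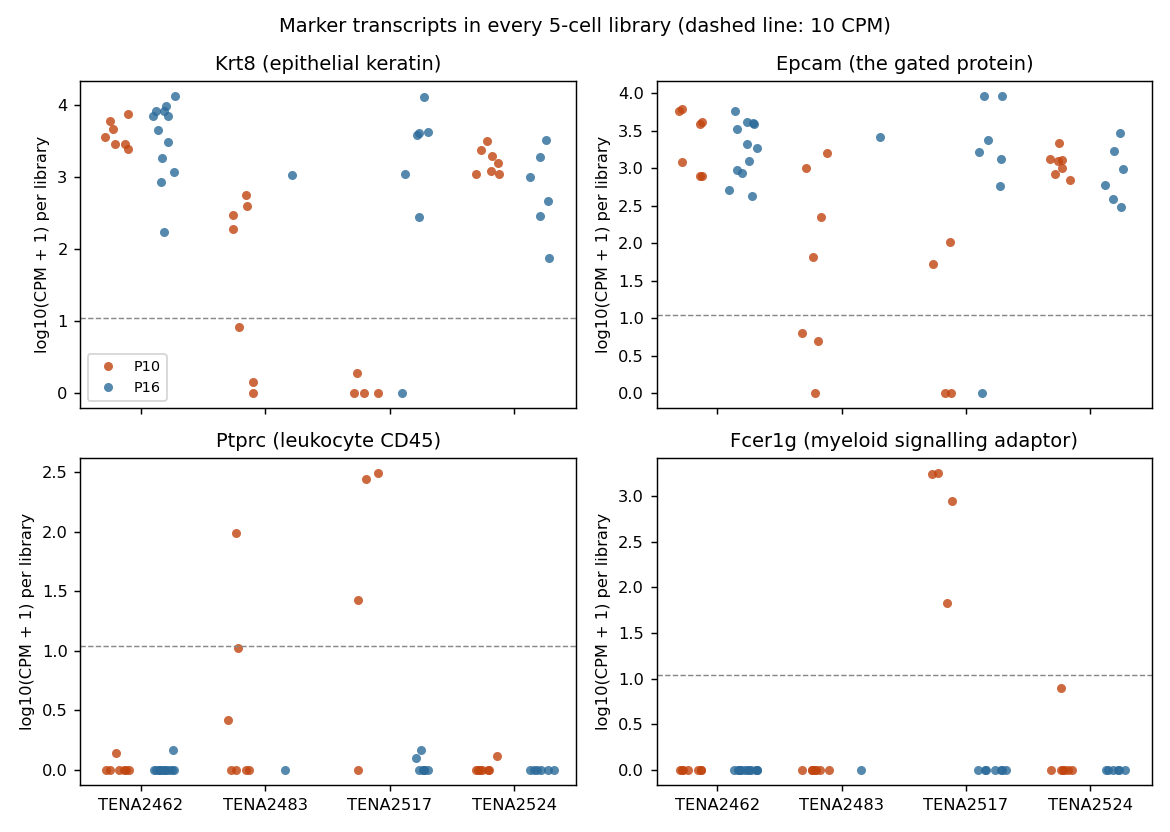
Level of Krt8, Epcam, Ptprc and Fcer1g as log10(CPM + 1) in each P10 library (red, left) and each P16 library (blue, right) of the 4 animals, 1 point per library, with a dashed line at 10 CPM. Krt8 lies below the line in all 4 P10 libraries of TENA2517 and in 3 of 7 of TENA2483, while Ptprc or Fcer1g lies above it in 5 P10 libraries and in 0 P16 libraries.

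Among single libraries, P10 held pools with epithelial markers, pools with leukocyte markers and a few with both. At a level of at least 10 CPM, Krt8 was found in 18 of 25 P10 libraries (72%, exact 95% interval 50.6 to 87.9) and in 25 of 26 P16 libraries (96.2%, 80.4 to 99.9). Such intervals, here and below, take libraries as independent, which those of 1 animal are not. They do not cover the spread between animals. Epcam was found in 20 of 25 P10 libraries (80%) and in 25 of 26 P16 libraries. In TENA2462 and TENA2524 all 7 P10 libraries of each animal held both genes, as did all 12 and 6 P16 libraries. In TENA2483 4 of 7 P10 libraries held Krt8, and in TENA2517 0 of 4 did, against 1 of 1 and 6 of 7 P16 libraries. The share of libraries with Krt8 averaged 64.3 ± 47.4% over animals in P10 and 96.4 ± 7.14% in P16 (SD, n = 4 animals, exact paired permutation test, two-sided, p = 0.5). While 4 pairs allow no p below about 0.13, the gates had equal shares in TENA2462 and TENA2524. The p could therefore not fall below 0.5 here, and the test decides nothing.

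Ptprc encodes CD45, the surface phosphatase shared by white blood cells, and Fcer1g encodes a signalling chain of Fc receptors in myeloid cells. Ptprc (chromosome 1, 138062861 to 138175708, minus strand) reached 10 CPM in 4 of 25 P10 libraries (16%, exact 95% interval 4.54 to 36.1) and in 0 of 26 P16 libraries, which allows a share of up to 11.5% by 3 counts of 26 and of up to 13.2% by the exact 95% interval. Both limits take the 26 libraries as independent, although they came from 4 animals. Ptprc or Fcer1g was found in 5 P10 libraries (20%) and in 0 P16 libraries. The 5 were all 4 libraries of TENA2517 and 1 of TENA2483. The share with either gene averaged 28.6 ± 48.1% over animals in P10 and 0% in P16 (n = 4 animals, exact paired permutation test, two-sided, p = 0.5). In TENA2462 and TENA2524 neither gate held such a library, so this p could not fall below 0.5 either. Krt8 and Ptprc were not found together at 10 CPM in any of the 51 libraries. Other marker pairs were: of the 5 libraries with Ptprc or Fcer1g 2 also held Epcam at that level, 1 of them with Ptprc, and 1 held Krt18. Leaving out the libraries with over 75% of counts in 10 genes left Krt8 in 16 of 20 P10 and 22 of 22 P16 libraries, and Ptprc in 4 of 20 and 0 of 22.

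The labels give gates on GFP, mCherry and EpCAM and name none on CD45. The 4 P10 libraries of TENA2517 carried macrophage transcripts. Fcer1g stood at 66.9, 1776, 1752 and 869 CPM in them and Ptprc at 0, 25.5, 277 and 309 CPM, while Krt8 did not exceed 0.881 CPM. Epithelial transcripts were not absent from them, Epcam being at 103, 0, 0 and 51.4 CPM and Krt18 at 0, 0, 57.1 and 0 CPM. The first also held Wfdc18, which encodes a secreted protein of mammary epithelium, at 283 CPM. The second, which was the shallowest library of the comparison with 313655 counts, had 848 CPM of epithelial keratin genes and 625 CPM of endothelial genes in sum, and it held Col1a1 at 555 CPM and Acta2 at 166 CPM, genes of fibrillar collagen and of smooth muscle actin. In the leukocyte library of TENA2483 (P10 replicate 5) Fcer1g was at 0, Epcam at 3.87 CPM and Ptprc at 96.4 CPM. Its macrophage genes summed to 1599 CPM, its MHC class II genes to 8823 CPM and its lymphocyte genes to 1379 CPM, against 79.3 to 245.5 CPM of lymphocyte genes in the 4 libraries of TENA2517. In 2 further P10 libraries of TENA2483, with 88.9 and 96.1% of counts in 10 genes, Krt8 was at 7.36 and 0 CPM and Ptprc at 9.51 and 1.64 CPM. The former held Krt18 at 259 CPM and Epcam at 65.3 CPM, and the latter Krt18 at 0 and Epcam at 5.235 CPM. In P16 the single library without Krt8 and Epcam, of TENA2517, had 94.4% of its counts in 10 genes.

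**Figure D2:**
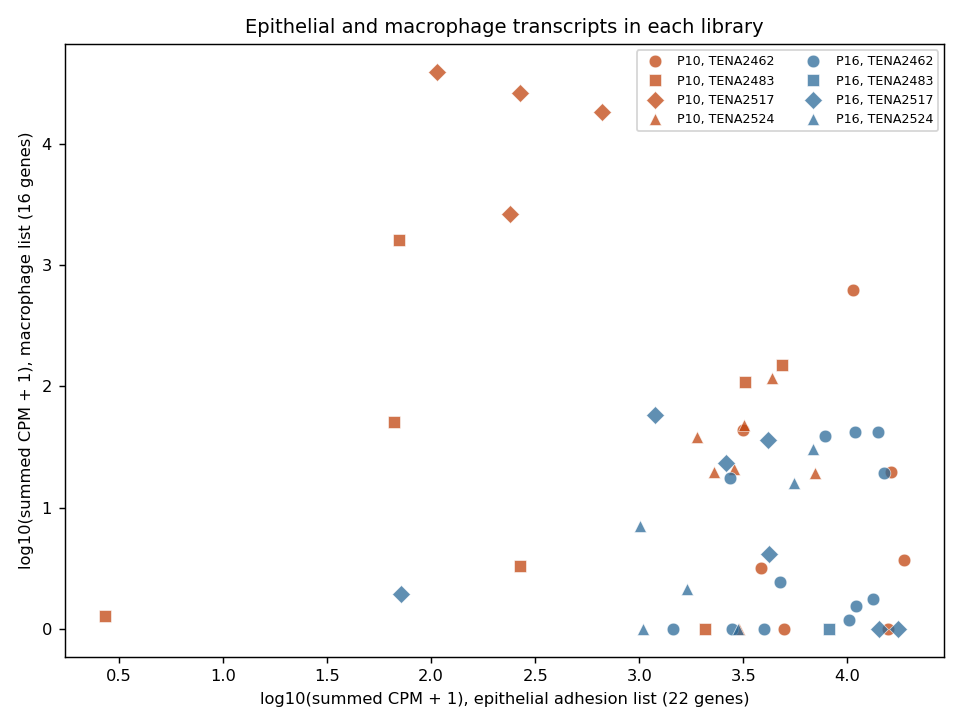
Summed level of the 16 macrophage genes against that of the 22 epithelial adhesion genes, both as log10(summed CPM + 1), in each library of P10 (red) and P16 (blue), with 1 marker shape per animal. The P10 libraries of TENA2517 have macrophage sums of 2617 to 39220 CPM and epithelial sums of 106 to 660 CPM, while P16 libraries reach at most 56.8 CPM of macrophage genes.

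Summed per animal, the macrophage genes stood at 124, 452, 23420 and 42.6 CPM in P10 and at 17.2, 0, 20.5 and 11.1 CPM in P16. P10 lay above P16 in 4 of 4 animals, but in TENA2462 this order rested on 1 library. P10 replicate 11 held 90.6% of the macrophage counts of that sum, which without it was 13.9 CPM, against 17.2 CPM in P16. In TENA2483 the leukocyte library held 85.8% of them, and without it the P10 sum was 77.05 CPM, against 0 in P16. Of the 16 genes 9 were higher in P10 at an unadjusted p below 0.05, against 2.66% of all genes, 0 were lower, and 0 passed the adjusted test. Within animals the median log2(CPM + 1) ratio of the list was −0.06, 0.04, 9.77 and 0.27, so it was large in TENA2517 only. The median fitted log2 fold change was 9.31 (9.54 with genes absent from P16 set at their bound). It was 2.32 without TENA2517 and 4.76 without the libraries that held Ptprc.

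Apoe, the lipid carrier abundant in macrophages, stood at 112, 71.5, 8975 and 24.6 CPM in P10 and at 1.99, 0, 0.0386 and 1.85 CPM in P16. P10 lay above P16 in each animal and the groups did not overlap (log2 fold change 9.58 ± 2.61, edgeR p = 0.000966, adjusted p = 0.933). In TENA2462 99.8% of the P10 counts came from replicate 11, and without it the level was 0.224 CPM, below that of P16. Csf1r, the receptor of the macrophage growth factor CSF1, stood at 3.74, 0, 691 and 0.990 CPM in P10 and at 4.60, 0, 11.9 and 1.67 CPM in P16, with P10 the higher gate in TENA2517 only. The complement genes C1qa and C1qb stood at 2100 and 2222 CPM in P10 of TENA2517 and at no more than 5.16 CPM in any other sum. Fcer1g stood at 0, 0, 941 and 1.69 CPM in P10 and was at 0 in every P16 sum. Ptprc stood at 0.0623, 25.3, 213 and 0.0260 CPM in P10 and at 0.0538, 0, 0.0772 and 0 CPM in P16 (log2 fold change 8.11 ± 3.56, edgeR p = 0.036, adjusted p = 0.933).

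MHC class II genes, which present antigen on macrophages, dendritic cells and B cells, summed to 37.0, 2145, 25280 and 18.5 CPM in P10 and to 258, 0, 12.9 and 9.93 CPM in P16. Cd74, the invariant chain of the complex, stood at 0, 928, 11200 and 3.54 CPM in P10 and at 136, 0, 0 and 0 CPM in P16. P10 was the lower gate in TENA2462 and the higher one elsewhere, for the sum and for Cd74. In TENA2462, however, P16 replicate 6 held 92.1% of the summed P16 counts, and without it that sum was 22.1 CPM, below the 37.0 CPM of P10. Without P10 replicate 7 the P10 sum of TENA2524 was 5.24 CPM, below that of P16. The leukocyte library held 99.8% of the P10 counts of TENA2483. Of the 7 genes 2 were higher at an unadjusted p below 0.05, against 2.66% of all genes, and the median log2 fold change was 4.17. It was −1.93 without the libraries holding Ptprc and 0.05 without TENA2517. Lymphocyte genes summed to 28.0, 361, 123 and 24.2 CPM in P10 and to 34.4, 13.8, 34.7 and 26.1 CPM in P16, and 3 of 14 were higher at that level. The B cell gene Ms4a1, which encodes CD20, stood at 0, 128, 0 and 0.521 CPM in P10 and was at 0 in P16, whereas the T cell gene Cd3e was at 0 in all 8 sums.

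**Figure D3:**
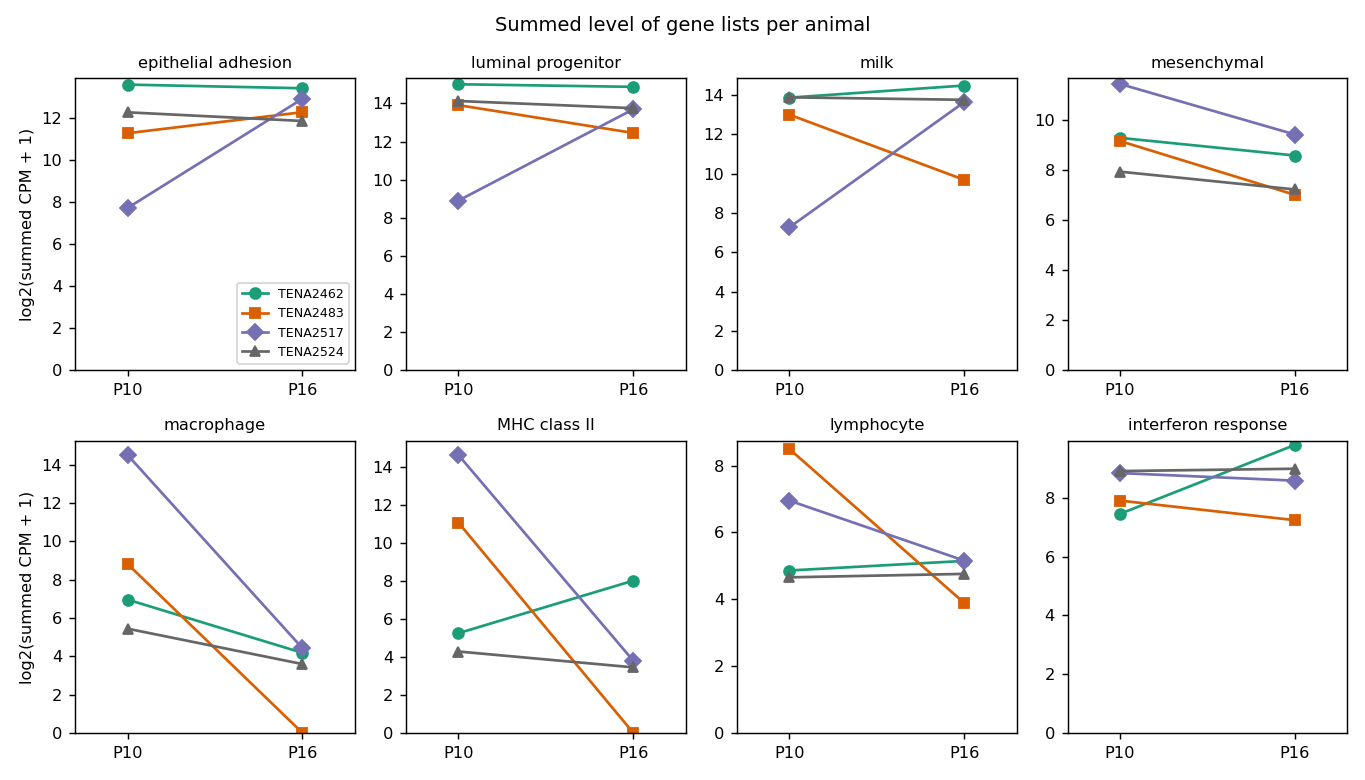
Summed level of 8 gene lists as log2(summed CPM + 1) in the P10 sum (left) and the P16 sum (right) of each animal, with 1 colour and shape per animal and a line joining the sums of an animal. The macrophage list runs from 42.6 to 23420 CPM in P10 and from 0 to 20.5 CPM in P16, and the epithelial adhesion list from 208 CPM (TENA2517) to 12140 CPM in P10 and from 3664 to 10760 CPM in P16.

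Genes of the mesenchymal list had mostly positive fitted folds, while their medians within single animals were small. Of its 20 genes 19 had a positive fitted fold and 7 were higher at an unadjusted p below 0.05 (among them Lgals1, Sparc, Fstl1, Axl, Emp3 and Tgfbi), against 2.66% of all genes. The median log2 fold change was 2.84, while the median ratios within animals were −0.04, 0.60, 0.68 and 0.42. The list summed to 630, 576, 2812 and 246 CPM in P10 and to 386, 129, 691 and 150 CPM in P16, higher in P10 in 4 of 4 animals. Without P10 replicate 11 the sum of TENA2462 was 365 CPM, below the 386 CPM of P16. Without the libraries holding Ptprc the median was 1.00, without TENA2483 1.34 and without TENA2517 2.90. The macrophage sums given above move with this list in TENA2517, and their part in it was not tested beyond these values.

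Vim, the intermediate filament of mesenchymal cells and of leukocytes, stood at 24.5, 94.6, 483 and 9.61 CPM in P10 and at 28.4, 0, 234 and 3.62 CPM in P16 (log2 fold change 1.36 ± 1.38, edgeR adjusted p = 0.957). Without the libraries holding Ptprc its fold was −0.59. At 10 CPM or more Vim was found in 9 of 25 P10 libraries (36%) and in 4 of 26 P16 libraries (15.4%), with an exact paired permutation p of 0.25 over the 4 animals. Vim stood beside Krt8 in 5 P10 libraries (20%) and 4 P16 libraries (15.4%), pools in which both an epithelial and a mesenchymal filament were read. In P16 all libraries with Vim thus held Krt8, and in P10 the remaining 4 did not.

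Lgals1, which encodes the secreted lectin galectin-1, stood at 36.4, 211, 785 and 88.9 CPM in P10 and at 95.5, 19.5, 122 and 61.4 CPM in P16 (log2 fold change 1.79 ± 0.71, edgeR p = 0.0167). P10 was the higher gate in 3 of 4 animals. Sparc, a matrix-binding glycoprotein, stood at 156, 15.1, 7.00 and 0.0260 CPM in P10 and at 2.37, 0, 2.36 and 0 CPM in P16, with 99.1% of the P10 counts of TENA2462 in replicate 11 and 1.72 CPM there without it. Axl, a receptor tyrosine kinase of mesenchymal cells and macrophages, stood at 227 CPM in P10 of TENA2517 and at no more than 2.16 CPM in any other sum. Col1a1 stood at 10.3, 0.105, 22.6 and 2.76 CPM in P10 and at 1.13, 0, 0.154 and 2.90 CPM in P16 (log2 fold change 4.44 ± 1.82, edgeR p = 0.0211, adjusted p = 0.933). In P10 of TENA2517 1 library, replicate 2, held 100% of the Col1a1 counts, and in P10 of TENA2462 replicate 11 held 98.8%, with 0.150 CPM left without it. Acta2 stood at 3.24, 2.14, 7.13 and 2.60 CPM in P10 and at 1.37, 0.136, 0.541 and 0.145 CPM in P16, so that the groups did not overlap, at levels of a few CPM (log2 fold change 3.02 ± 1.46, edgeR p = 0.0478, adjusted p = 0.933). These P10 levels of Acta2 rested on 1 library each in 3 animals, replicate 2 in TENA2483 and TENA2517 and replicate 3 in TENA2524, with 90.2, 94.55 and 92% of the counts. Without these libraries they were 0.239, 0.407 and 0.245 CPM, so that the gates overlapped, and P10 of TENA2517 lay below P16 of the same animal.

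EMT transcription factors showed no common direction. Of 13 tested 1, Zeb2, was higher in P10 at an unadjusted p below 0.05, against 2.66% of all genes. The median log2 fold change was 0.34. Zeb2 stood at 0.374, 0, 36.7 and 0 CPM in P10 and at 0.0807, 0, 0.0772 and 0 CPM in P16. Zeb1 stood at 0.1246, 0, 24.5 and 0 CPM in P10 and at 0, 0, 0.232 and 0 CPM in P16. Both repressors were thus read almost only in the P10 sum of TENA2517, the one with the macrophage genes. Snai2 stood at 7.66, 0, 0 and 7.37 CPM in P10 and at 0.215, 0, 0 and 0.507 CPM in P16, in the animals whose P10 libraries all held Krt8. In TENA2462 100% and in TENA2524 99.3% of the P10 counts of Snai2 came from 1 library. Cdh2, which encodes N-cadherin, had 0 CPM in all P10 sums and at most 0.0538 CPM in P16.

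Tnc, the gene whose promoter drives the Cre (chromosome 4, 63959785 to 64047015, minus strand), stood at 35.0, 35.6, 0 and 2.94 CPM in P10 and at 5.19, 0, 66.8 and 0.145 CPM in P16. The order of the gates differed between animals, with P10 higher in 3 and lower in TENA2517. In TENA2462 P10 replicate 11 held 98.4% of the Tnc counts, and without it P10 stood at 0.673 CPM, below the 5.19 CPM of P16. The log2 fold change was −1.75 ± 2.75 (edgeR adjusted p = 1.00), and 4.57 without TENA2517. At 10 CPM Tnc was found in 4 of 25 P10 libraries (16%) and in 5 of 26 P16 libraries (19.2%). Most GFP-positive pools of either gate thus held little Tnc transcript at the time of the sort.

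Of all genes, 2.66% were higher and 2.11% lower in P10 at an unadjusted p below 0.05. Among the list of partial EMT and matricellular genes 0 of 19 were higher and 1 was lower at that level, with a median of −0.43. Of 20 collagen and matrix genes 1 was higher and 1 lower, with a median of 0.46. Of 16 genes of the TGF-beta pathway, the inducer of EMT in many epithelia, 1 was higher and 0 were lower, with a median of −0.29. Fibroblast markers were near 0 in both gates, with list sums of at most 4.90 CPM in P10 and 4.13 CPM in P16. Endothelial markers summed to 0.685, 6.74, 27.9 and 5.08 CPM in P10 and to 9.76, 17.9, 1.12 and 4.13 CPM in P16.

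Genes of luminal progenitors and of milk were abundant in most sums of both gates. Luminal progenitor genes summed to 32890, 15390, 477 and 17880 CPM in P10 and to 29920, 5589, 13240 and 13770 CPM in P16. Milk genes summed to 14990, 8244, 153 and 15160 CPM in P10 and to 22990, 825, 12800 and 13890 CPM in P16. Apart from P10 of TENA2517, both lists stood at 8244 CPM or more in P10, and 0 of 13 and 0 of 14 genes were below an unadjusted p of 0.05 (medians −0.33 and −0.53). Lcn2, a secreted iron-scavenging protein of luminal progenitors, stood at 3409, 6688, 1.43 and 5660 CPM in P10 and at 4835, 3500, 2201 and 2505 CPM in P16 (log2 fold change 0.01 ± 1.01). Csn3, which encodes kappa-casein, stood at 4852, 5785, 7.00 and 7857 CPM in P10 and at 10410, 0, 5596 and 7954 CPM in P16.

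Hormone-sensing genes were low in both gates, with list sums of 116, 50.3, 0.259 and 137 CPM in P10 and 182, 22.0, 108 and 108 CPM in P16. Of 10 tested 1 was lower in P10 at an unadjusted p below 0.05, against 2.11% of all genes. Basal and myoepithelial genes summed to 977, 387, 12.8 and 273 CPM in P10 and to 512, 236, 540 and 470 CPM in P16, with 0 of 15 below that level and a median of −0.19. Their keratin Krt14 stood at 427, 157, 0 and 9.14 CPM in P10 and at 166, 0, 98.0 and 141 CPM in P16, with no common order of the gates. Of 12 contractile genes 1 was higher, against 2.66% of all genes, with a median of 0.05.

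Genes of the G2 and M phases of the cell cycle differed between animals more than between gates. They summed to 35.9, 320, 95.1 and 156 CPM in P10 and to 204, 10.2, 18.7 and 206 CPM in P16. P10 was the lower gate in TENA2462 and TENA2524 and the higher one in TENA2483 and TENA2517. In TENA2524 P16 replicate 3 held 73.7% of the P16 counts, and without it P16 stood at 74.8 CPM, below P10. At an unadjusted p below 0.05 stood 4 of 20 genes higher in P10 (Plk1, Aurka, Aurkb and Bub1b, mitotic kinases and a checkpoint kinase) and 1 lower (Cenpf, a kinetochore protein), against 2.66% higher and 2.11% lower of all genes. Plk1 stood at 0.0623, 67.9, 30.1 and 0 CPM in P10 and at 0, 0, 0 and 0.362 CPM in P16. Cenpf stood at 0, 0.0522, 0.259 and 0 CPM in P10 and at 8.44, 0, 0.0772 and 22.5 CPM in P16. The proliferation marker Mki67 stood at 0.747, 2.35, 0.648 and 6.51 CPM in P10 and at 19.4, 0, 0.232 and 19.0 CPM in P16. It was lower in P10 in TENA2462 and TENA2524, as was Cenpf. Plk1 had the other order in TENA2462 only, with 0.0623 CPM in P10 and 0 in P16. All Mki67 counts in P16 of TENA2524 came from replicate 5. Of 19 S phase genes 0 were below that level, with a median of −0.52.

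Interferon response genes stood lower in P10 in the fit, with a median of −1.56 and 2 of 20 positive folds. Only 1 of the 20 (Stat2) was lower at an unadjusted p below 0.05, against 2.11% of all genes. The within-animal medians were −3.23, 0.04, −0.42 and −0.13, and the sums were 175, 240, 460 and 483 CPM in P10 and 897, 151, 385 and 510 CPM in P16. The lower level was thus mainly that of TENA2462. Without that animal the median was 0.28, and without TENA2524 it was −3.42. Isg15, a ubiquitin-like protein made on interferon signalling, stood at 0, 3.08, 0 and 3.75 CPM in P10 and at 37.9, 0, 0.154 and 16.6 CPM in P16 (log2 fold change −3.69 ± 2.23). MHC class I genes summed to 1314, 3512, 3309 and 7422 CPM in P10 and to 4104, 6983, 2039 and 1912 CPM in P16, with P10 lower in 2 animals and higher in 2. Without P10 replicate 6 the P10 sum of TENA2517 was 1622 CPM, below that of P16.

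Mitochondrially encoded genes had negative fitted folds in 13 of 13 cases, with a median of −0.50 and 0 below an unadjusted p of 0.05. They summed to 4215, 14890, 6902 and 5590 CPM in P10 and to 9694, 5653, 10340 and 23720 CPM in P16, lower in P10 in 3 of 4 animals. Of 20 genes of oxidative phosphorylation 0 were below that level (median −0.17), as were 0 of 20 genes of hypoxia and glycolysis (−0.08), 0 of 16 of lipid and sterol synthesis (0.15), 0 of 20 cytosolic ribosomal proteins (−0.02), 0 of 18 immediate early and stress genes (−0.23) and 0 of 14 heat shock genes (−0.46). Of 14 apoptosis and p53 genes 1, Mcl1, was lower at that level, against 2.11% of all genes. Mcl1, which encodes a protein that blocks apoptosis, stood at 3.43, 4.86, 30.6 and 24.7 CPM in P10 and at 45.3, 97.3, 61.8 and 33.8 CPM in P16, with no overlap of the gates (log2 fold change −2.06 ± 0.85). Without P16 replicate 5 the P16 level of TENA2524 was 21.0 CPM, and the gates overlapped.

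**Figure D4:**
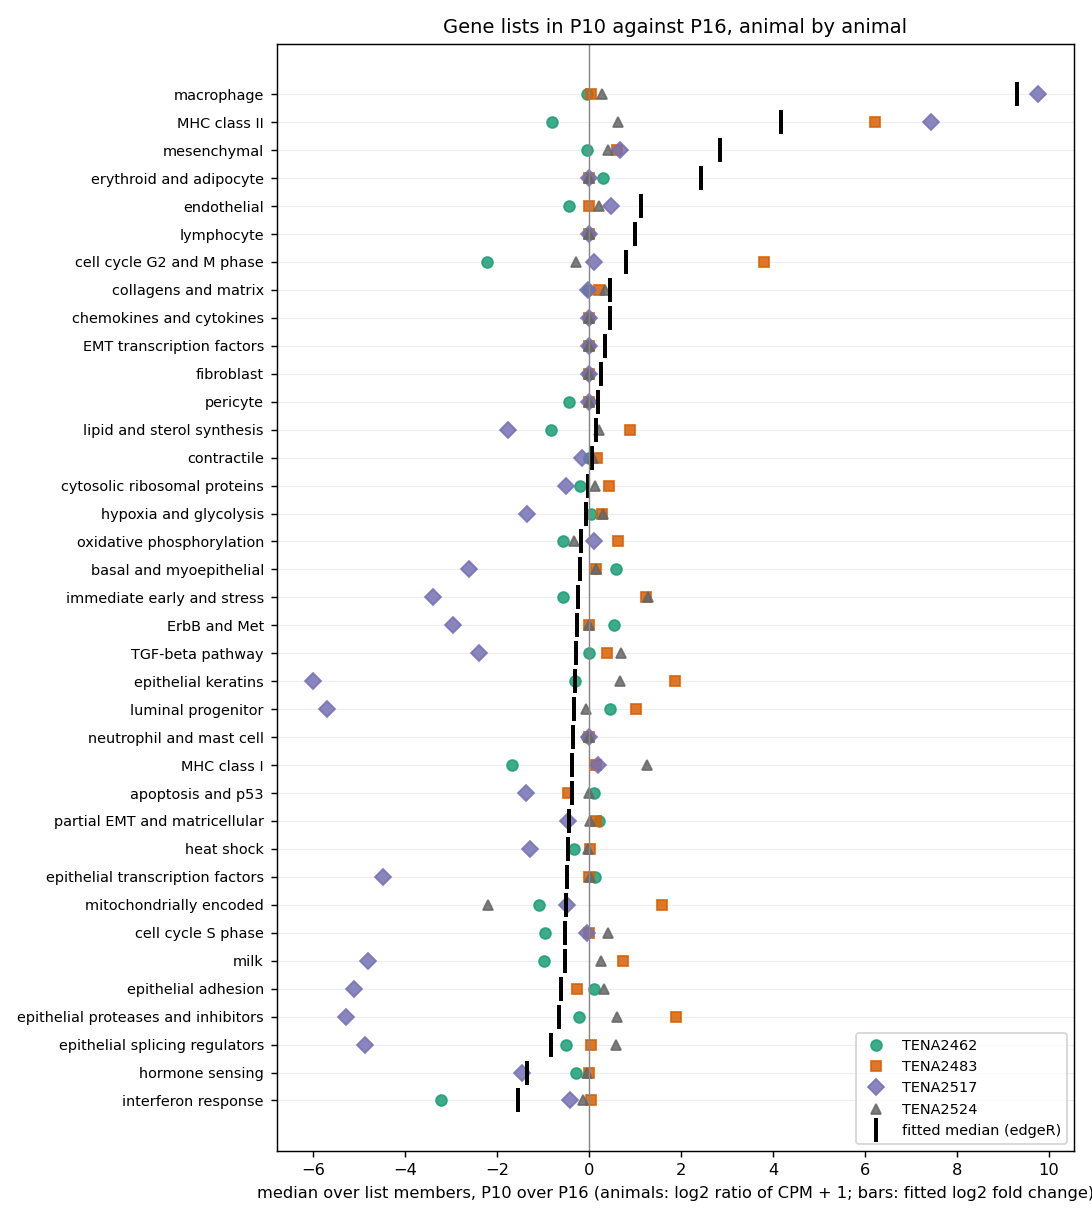
Median over the genes of each list of the log2 ratio of CPM + 1, P10 over P16, within each animal (1 colour and shape per animal), with the median fitted log2 fold change as a black bar and a line at 0. The medians of the epithelial adhesion list are 0.11, −0.28, −5.12 and 0.31, and those of the macrophage list −0.06, 0.04, 9.77 and 0.27, so TENA2517 stands apart from the other 3 animals.

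The genes named by rule were the 12 in each direction with the smallest unadjusted p among those with a mean of at least 10 CPM in the gate where they were higher and the same direction in at least 3 of 4 animals. This rule favours genes whose order agrees between animals and whose gates do not overlap, so neither trait is further support for them. The share of all genes without overlap was not counted. Of those higher in P10, several are known from leukocytes. Coro1a, an actin regulator of leukocytes, stood at 0.436, 163, 742 and 4.61 CPM in P10 and was at 0 in all P16 sums, a log2 fold change of at least 11.68 (3 counts over P16; edgeR p = 8.22e-05, adjusted p = 0.925). Its counts in P10 of TENA2483 came from the leukocyte library alone. Ncf4, a subunit of the phagocyte NADPH oxidase, stood at 223 CPM in P10 of TENA2517 and at no more than 2.16 CPM in any other sum. Tec, a kinase of blood cells, stood at 55.4, 17.4, 102 and 13.7 CPM in P10 and at 4.03, 0, 0 and 0.217 CPM in P16, without overlap (log2 fold change 6.18 ± 1.56). In TENA2483 and TENA2517 100% of these counts came from 1 library each, without which P10 was at 0. Bcl2a1d, of the Bcl2 family, and Napsa, an aspartic protease, were likewise at 0 in P16 and led by TENA2517 at 124 and 231 CPM. Bcl2a1d has near-identical copies in the mouse genome, among which reads may have been split. Tgfbi had 95.4% of its counts in 1 P10 library of TENA2517.

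Nkiras1 and Glmn had higher P10 levels in all 4 animals. The highest P10 level of Nkiras1 was that of TENA2483, and those of Glmn were alike in 3 animals, with TENA2517 the highest by a small margin. Nkiras1, which encodes an inhibitor of NF-kappaB signalling, stood at 26.7, 32.0, 21.5 and 11.7 CPM in P10 and at 8.50, 0.813, 2.24 and 5.47 CPM in P16 (log2 fold change 2.64 ± 0.75, edgeR p = 0.0014, adjusted p = 0.933). Glmn, which encodes glomulin, a regulator of ubiquitin ligases, stood at 15.2, 16.3, 16.6 and 1.56 CPM in P10 and at 0.0269, 0, 0.154 and 0.0362 CPM in P16 (log2 fold change 7.80 ± 1.80, edgeR p = 0.000165). Neither gene's gates overlapped, yet Glmn reached 10 CPM in only 4 of 25 P10 libraries. Its P10 counts came from 1 library alone in TENA2483 (the leukocyte library) and in TENA2524, as did those of Nkiras1 in TENA2517, and without these libraries each level was at 0. E130311K13Rik and Pde6h were also in the higher set, with 40.2 and 85.0 CPM in P10 of TENA2517 as their highest values.

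The 12 genes named for lower P10 levels reached at most 78.5 CPM in any P16 sum. Aff4, a scaffold of the complex that releases paused RNA polymerase, stood at 7.10, 0.313, 0 and 19.3 CPM in P10 and at 53.5, 17.8, 51.5 and 41.4 CPM in P16 (log2 fold change −3.13 ± 0.96, edgeR p = 0.00294, adjusted p = 0.933). Rad1, part of the DNA damage clamp, stood at 0, 0.366, 0.130 and 0.234 CPM in P10 and at 7.53, 31.8, 12.9 and 13.5 CPM in P16 (−6.42 ± 2.09). Ptprj, a receptor phosphatase of epithelial and blood cells, stood at 4.48, 0.261, 0 and 5.37 CPM in P10 and at 19.5, 33.6, 22.6 and 15.4 CPM in P16 (−3.35 ± 1.25). Ncoa6, a coactivator of nuclear receptors, stood at 0.810, 0, 0 and 0.781 CPM in P10 and at 20.8, 41.2, 6.02 and 8.48 CPM in P16 (−5.91 ± 1.97). In this set, named by p and shared direction, the gates did not overlap for Rad1, Ptprj and Ncoa6 and overlapped slightly for Aff4. For Ptprj and Ncoa6 they stayed apart when the leading library was left out of 1 sum at a time. This could not be done for P16 of TENA2483, a single library with the highest level of both genes. Rad1 in P16 of TENA2517 came from 1 library alone. Stat2, which carries interferon signals to the nucleus, and Srxn1, which repairs oxidised peroxiredoxins, had fitted folds of −5.72 ± 2.05 and −5.22 ± 1.75. The other lower genes were Herc6, Tmem175, Rbm48, Dnajc9, Gm14133 and Atg10, with folds of −6.76 to −3.75 and adjusted p of 0.933 in edgeR.

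**Figure D5:**
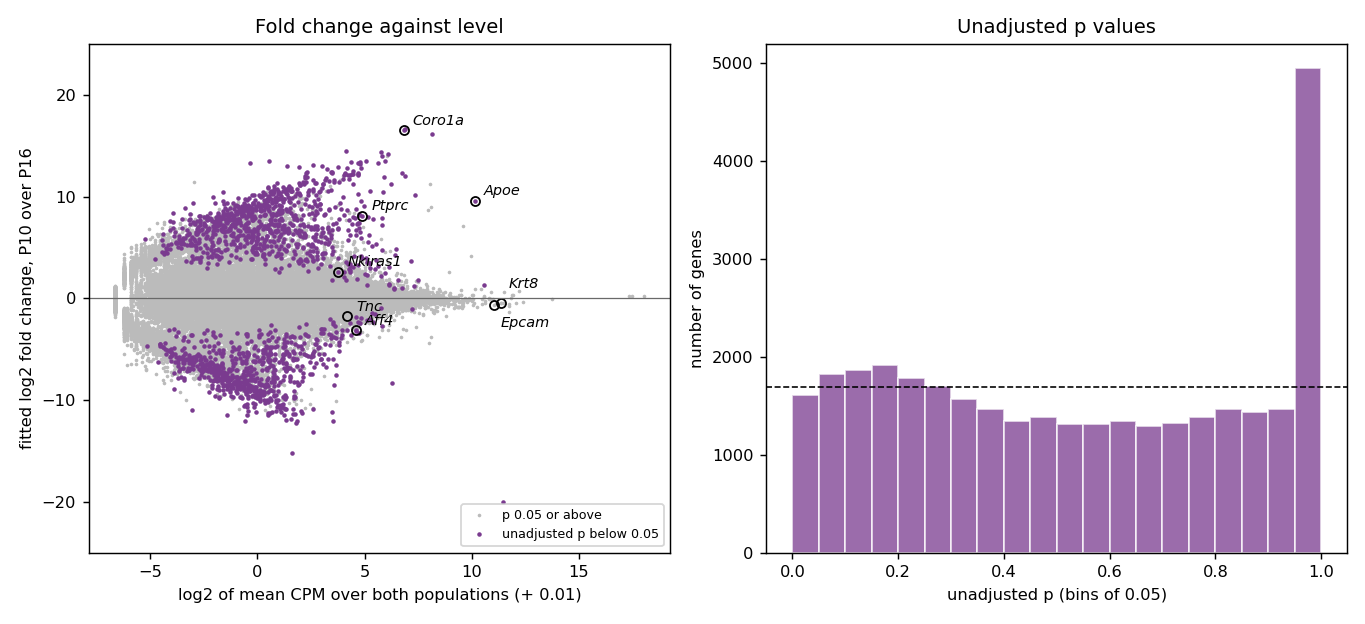
Left, fitted log2 fold change of P10 over P16 against log2 of the mean CPM over both gates, 1 point per gene tested, with genes at an unadjusted p below 0.05 in purple and some named genes circled (fitted values of genes with 0 counts in a gate, such as Coro1a, are no finite folds). Right, number of genes per bin of unadjusted p, with a dashed line at an even spread: the lowest bin, with 1610 genes, does not rise above it. The even spread includes 3428 genes at 0 counts in both gates, which hold no difference to find.

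Single libraries weighed on the unadjusted results. For 77 genes and summed lists described here, the library with most counts was left out of 1 sum at a time, a check chosen after seeing the data that kept the scaling of the sum and could not be made for the single P16 library of TENA2483. The order of the gates within an animal changed or was lost in 93 of 308 cases. Of 18 genes and lists with 1 order in all 4 animals 3 kept it throughout, Aff4, Ptprj and Ncoa6, all lower in P10. Their common direction is no result, since P16 of TENA2483, the higher gate of that animal for all 3, could not be put to this check. All 3 were also named by the rule above, which asks for 1 direction in at least 3 of 4 animals. Of 13 whose gates did not overlap 2 stayed apart, Ptprj and Ncoa6. The shares of all genes with 1 order in all animals or without overlap were not counted. These counts are therefore no result about the genes named. Of the 8814 genes at 10 CPM or more on average 74 (0.84%) had at least 90% of their counts of both gates in 1 library, and of the 300 of these genes with an unadjusted p below 0.05 28 had (9.33%). Cd83, an activation marker of dendritic and B cells, had 99.7% of its counts in the leukocyte library of TENA2483, where it stood at 1861 CPM. Gdf3, a ligand of the TGF-beta family, had 99.1% of its counts in 1 P10 library of TENA2517.

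P10 pools had fewer genes with a read than P16 pools, by a difference that did not pass the test. The median number of genes with a read averaged 7812 ± 3481 over animals in P10 and 9618 ± 1355 in P16 (SD, n = 4; exact paired permutation test, two-sided, p = 0.25). With every library thinned to 300000 counts it was 5613 ± 1940 in P10 and 6996 ± 1081 in P16, lower in P10 in 4 of 4 animals (exact permutation p of 0.13 after rounding, the smallest that 4 pairs allow). P10 pools of an animal were also less like each other: Spearman's rho between pairs of libraries across genes had a median of 0.38, 0.17, 0.35 and 0.59 within P10, and of 0.52, 0.45 and 0.62 within P16 of TENA2462, TENA2517 and TENA2524. In TENA2462 and TENA2524, where all libraries of both gates held Krt8 and Epcam, the value between gates (0.48 and 0.60) lay between those within them. The value between gates was 0.46 in TENA2483, above that within P10. In TENA2517 it was 0.34, below those within either gate.

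Among the other gates of the Tnc-CreERT2 line, markers were counted at 10 CPM as above. All 48 libraries of P09 held Krt8 and 0 held Ptprc; the labels of P09 libraries give the same GFP and EpCAM levels as those of P16, while the series description lists no gate under P09, so how the 2 differ is uncertain. The mCherry-positive P18 (55 libraries) and the double-positive P22 (50), both with high EpCAM, likewise held Krt8 in 100% and Ptprc in 0%. Of the 12 libraries of P15, GFP-positive cells without EpCAM, 0 held Krt8 and all 12 held Ptprc. P16 held Krt8 in 96.2% and Ptprc in 0%, P10 in 72% and 16%, and mCherry-positive, EpCAM-negative P05 in 31.3% and 21.9% of 32 libraries. Without TENA2517, Ptprc was found in 1 of 21 P10 libraries (4.76%). Epcam averaged 1577 ± 1704 CPM in P10 (n = 4), 2591 ± 1342 in P16 (n = 4), 2991 ± 1292 in P09 (n = 5) and 43.8 ± 62.6 in P15 (n = 3), and the values of P10, P16 and P09 did not differ beyond their spread. The 17 empty wells held 0 to 256675 counts (median 19), among them 254 reads of Epcam, 33 of Ptprc, 6 of Fcer1g and 2 of Krt8 in all.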

How the data were processed

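The authors deposited raw counts of reads per gene (whole numbers) from Smart-seq2 libraries of 5-cell pools, per the labels; the submitters' processing notes name the build mm10 and STAR, SAMtools, featureCounts and Subread, with versions, settings and use of strand not given in the sources used here. All 55450 identifiers matched GENCODE M21 (GRCm38), and no library duplicated another. Counts of libraries that passed the labels' quality control were summed per animal and population, which gave 43 sums of both mouse lines. These were fitted together in edgeR 4.0.16 (TMM factors, 0.6899 to 1.67 in the 8 sums used; filterByExpr; robust quasi-likelihood F test, 24 residual degrees of freedom) with the animal as a block, and p-values were adjusted over 33768 genes by the Benjamini-Hochberg method, with 0.05 as threshold. Sums were paired because they come from the same animals, per the labels; the deviations of the 2 sums of an animal from their gate means correlated at 0.26, 0.05, −0.06 and 0.12 over 8814 genes. Fold changes are log2 values ± SE. Where P16 had 0 counts, 3 counts over the gate give a bound. Ratios within an animal used a pseudocount of 1 CPM. Shares of libraries have 95% exact (Clopper-Pearson) intervals, which take libraries as independent, and were compared by exact paired permutation over animals.

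The named genes were the 12 per direction described above plus Epcam, Tnc, Krt8, Krt18, Cdh1, Vim, Ptprc, Col1a1 and Acta2. Some genes that met the rule are not reported here. Other single genes were picked from the lists after their values were seen. The comparison, the 37 lists (514 symbols) and the rule were chosen with earlier results of these data known. A test on simulated counts preceded the fit. Alternatives used DESeq2 1.42.0 and limma 3.58.1, other filters and scalings, fewer samples, libraries of equal weight and left-out animals. R 4.3.3 and Python 3.11.15 were used.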

Additional observations from a re-analysis of the deposited data

Results flagged for a closer look

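In 168 sets of 4 animal values, those of genes, summed lists, shares of libraries and detection described at length, a value far from the other 3 was sought by Dixon's criterion at the 95% level. In 51 a value stood apart. Chance flags about 1 in 20 sets of independent, normally distributed values, a rate that does not apply to these sets, since they include genes named by their p or picked after their values were seen, raw CPM values and lists that share genes.

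P10 of TENA2517 stood apart, as the highest value, for Ptprc (213 CPM), Fcer1g (941), Apoe (8975), Csf1r (691), Cd74 (11200), C1qa (2100), C1qb (2222), Ncf4 (223), Napsa (231), Tgfbi (545), Il1b (159), Axl (227), Zeb2 (36.7), Zeb1 (24.5), Pde6h (85.0), Cxcl2 (2.46) and Tmsb4x (6685). The same held for the summed macrophage (23420 CPM), MHC class II (25280) and mesenchymal genes (2812) and for the share of libraries with Ptprc or Fcer1g (100%).

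In P10 of TENA2483 Ms4a1 (128 CPM) and Igkc (533) stood apart. In P10 of TENA2462 Sparc (156 CPM), Fxyd2 (4.42) and the summed ErbB and Met genes (2639) did. In P10 of TENA2524 Glmn stood apart as the lowest value (1.56 CPM), and Srxn1 (1.98 CPM), S100a8 (25.1) and the summed fibroblast genes (4.90) as the highest.

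Among P16 values, those of TENA2517 stood apart for Vim (234 CPM), Tnc (66.8), Axl (2.16), Zeb1 (0.232) and the shares of libraries with Krt8 and with Epcam (85.7% for both, against 100% in the other animals). P16 of TENA2462 stood apart for Jup (842 CPM), Cd74 (136), Cxcl2 (66.9), Tec (4.03), the summed MHC class II genes (258), and, near the limit of detection, C1qa and C1qb (0.0538 for both) and E130311K13Rik (0.0269). P16 of TENA2524 did so for Klk1 (22880 CPM), Fxyd2 (617), Klk1b11 (91.7), Pde6h (0.761) and Plk1 (0.362). In the single P16 library of TENA2483 S100a8 (780 CPM) and the share with Vim (0%) stood apart.

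The P10 values of TENA2517 are those of 4 libraries, all with Fcer1g or Ptprc at 10 CPM or more and none with Krt8 at that level. The part of these markers in the other differences was not tested beyond the values given without these libraries or without this animal.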

How the results depend on the processing

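No gene was called in the main analysis or with RLE size factors, P10 and P16 sums alone, sums of the Tnc line, failed libraries added, sums of at least 3 libraries, libraries holding Ptprc left out, or any animal left out (0 higher and 0 lower in each). The same held for 2 alternatives chosen after seeing the data, libraries of at least 1000000 counts and libraries with at most 75% of counts in 10 genes. Genes called higher numbered 1 without a low-count filter and 1 with a filter at 1 CPM in 4 sums (Top3b in both, edgeR adjusted p 0.0103 and 0.00528), 65 with DESeq2 and 3 with libraries of equal weight in limma. Genes called lower numbered 51 with DESeq2 and 1 with equal weights. Without the animal block 2 genes were called higher (Prpsap2 and Gm13651, edgeR adjusted p 0.0335 for both), and the pairing changed no other call. All 116 DESeq2 calls had an unadjusted p below 0.05 in edgeR, and 11723 genes whose fit did not converge were left out. The cause of these differences was not tested.

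The sign of the log2 fold change of Tnc (main −1.75) turned with the 2 gates alone (3.45), no replicate block (0.0262), equal weights (0.78) and without TENA2517 (4.57), with a range of −3.13 to 4.57 over left-out animals. The log2 fold change of Krt8 (main −0.41) turned without TENA2517 (0.0717; range −1.40 to 0.0717). The log2 fold change of Krt18 (main −0.19) turned without libraries holding Ptprc (0.0535), without TENA2483 (0.0807), without TENA2517 (0.48; range −1.26 to 0.48) and with libraries of at least 1000000 counts (0.0191). The log2 fold change of Vim (main 1.36) turned without libraries holding Ptprc (−0.59). Of 526 values of named genes under alternatives 501 kept sign and side of the threshold, and 15 passed it, all with DESeq2. Of 624 list medians 165 moved by more than the SD over animals. The difference in library shares, in percentage points, turned for Tnc (main −0.595) at 1 CPM (3.87), at 50 CPM (7.14), with failed libraries (0.298), without TENA2517 (13.5; range −10.3 to 13.5) and on protein-coding counts (4.46). It turned for Pecam1 (main 7.74) without libraries led by 10 genes (−2.27), and for Krt8 with Vim (main 5.95) without TENA2483 (−1.59; range −1.59 to 12.7). The differences for Krt8 (−42.9 to −12.8) and Ptprc (4.76 to 31.3) kept their sign under all share alternatives. Depth, and P16 of TENA2483 with 1 library, limit all values of low genes.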

Other observations

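Some groups of genes stand outside the EMT and leukocyte programmes. Genes of the ErbB and Met receptors, their ligands and inhibitors summed to 2639, 275, 34.9 and 415 CPM in P10 and to 1779, 1534, 427 and 268 CPM in P16, and 0 of 12 had an edgeR p below 0.05. Errfi1, which encodes an inhibitor of ErbB receptors, was among them, with 1055, 113, 34.9 and 258 CPM in P10 and 761, 1406, 186 and 144 CPM in P16. Among 18 chemokine and cytokine genes 1, Il1b, was higher at that level, against 2.66% of all genes. Il1b, an inflammatory cytokine, stood at 0, 0, 159 and 0 CPM in P10 and at 0 in P16, with 100% of its counts in P10 replicate 6 of TENA2517. The chemokine gene Cxcl2 had its highest level in P16, with 0, 0, 2.46 and 0.0521 CPM in P10 and 66.9, 0, 0 and 0 CPM in P16. Of its P16 counts in TENA2462 94.5% came from replicate 9, and without it that level was 4.21 CPM.

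Markers of further cell types were low in most sums. Pericyte genes summed to 9.61 to 38.9 CPM in P10 and to 14.3 to 75.2 CPM in P16, with 0 of 8 below an unadjusted p of 0.05. Neutrophil and mast cell genes summed to 373, 103, 14.4 and 60.9 CPM in P10 and to 206, 868, 101 and 63.3 CPM in P16. Of these, S100a8 stood at 0, 0, 0 and 25.1 CPM in P10 and at 8.04, 780, 0.154 and 19.4 CPM in P16, the largest value being that of the single P16 library of TENA2483. Of 10 erythroid and adipocyte genes 2 were higher, against 2.66% of all genes, at no more than 7.23 CPM in any sum.

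A few genes that belong to no list were picked after their values were seen. Klk1, which encodes tissue kallikrein, a secreted serine protease, stood at 0 in every P10 sum and at 0, 0, 0 and 22880 CPM in P16, all of it in TENA2524. It reached 10 CPM in 4 of the 26 P16 libraries, with 77.9% of its counts in 1 of them at 62500 CPM (edgeR p = 0.00188, adjusted p = 0.933). Klk1 has close paralogs among which reads may have been split, and Klk1b11 stood at 0, 1.76, 0 and 91.7 CPM in P16. Fxyd2, a modulator of the sodium pump, had 87.3% of its counts in the same P16 library, where it stood at 1924 CPM. Igkc, the constant region of the kappa light chain of antibodies, had 100% of its counts in the leukocyte P10 library of TENA2483, at 2195 CPM. Tmsb4x, which encodes the actin-binding peptide thymosin beta 4, was read in nearly every pool and stood at 1059, 831, 6685 and 536 CPM in P10 and at 933, 637, 1119 and 311 CPM in P16, higher in P10 in 4 of 4 animals (log2 fold change 1.34 ± 0.56, edgeR p = 0.0222, adjusted p = 0.933). Without the leukocyte library the P10 level of TENA2483 was 587 CPM, below that of P16.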
